A study of Mus musculus with 12 samples.

Results

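The genes described here are *Tnf*, which encodes the cytokine TNF, its receptors *Tnfrsf1a* and *Tnfrsf1b*, and 4 genes that NF-kappaB switches on and that act back on the same pathway, *Tnfaip3*, *Nfkbia*, *Birc3* and *Traf1*. They were taken by gene symbol from the deposited gene table, where all 7 were found among 26938 genes with at least 1 count. Their counts were then summed by cell cluster and by tumor.

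TNF is a cytokine that macrophages, granulocytes and activated T cells release early in inflammation. It binds TNFR1 (*Tnfrsf1a*), present on most cell types, and TNFR2 (*Tnfrsf1b*), found mainly on immune cells. Both receptors lead to NF-kappaB, a transcription factor held in the cytoplasm by IκBα, the product of *Nfkbia*. NF-kappaB in turn raises transcription of *Nfkbia* itself, of *Tnfaip3*, which encodes the ubiquitin-editing enzyme A20 that shuts the signal down, of *Birc3*, which encodes the ubiquitin ligase cIAP2, and of *Traf1*, an adaptor that binds cIAP2 at TNFR2.

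The cells came from MC38 colon carcinoma tumors grown in female mice aged 8 to 12 weeks. Hosts were C57BL/6J (B6) animals or F1 animals of C57BL/6J x CC001/UncJ (CC001), C57BL/6J x CC002/UncJ (CC002), C57BL/6J x CC007/UncJ (CC007), C57BL/6J x CC036/UncJ (CC036), C57BL/6J x CC075/UncJ (CC075), C57BL/6J x CC079/TauUncJ (CC079) or C57BL/6J x CC080/TauUncJ (CC080), so that the tumor was the same line in every host and every host carried a B6 genome copy. Each received 1 intraperitoneal dose of 200 µg of isotype control antibody (2A3) or of antibody against PD-1 (29F.1A12, aPD1) once the tumor measured 75 to 110 mm3, and was killed 48 h later. Tumors were frozen, thawed for dissociation and sorted to 90% CD45+ and 10% CD45- cells, so the mix of cell types is that of the sort. Hosts CC001, CC002 and CC075 are responder strains in the study's classification and hosts CC036, CC079 and CC080 non-responder strains, a class that rests on tumor growth in other animals and that the sample labels do not give. B6 and CC007 tumors carry no class here. This gave 10 isotype and 10 aPD1 tumors of responder strains, 9 and 9 of non-responder strains, and 5 and 5 unclassed tumors. Each of 12 libraries (pools) held an isotype and an aPD1 tumor of 2 hosts, and the tumor, never the cell, was the replicate. Response class belongs to the strain, with 3 strains in each, so tests by class measure the spread between tumors and not between strains. Isotype and aPD1 tumors never carried the same hashtag, and tag and treatment cannot be told apart.

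The table held 93126 cells with a median of 3333.5 unique molecular identifiers (UMIs, each marking 1 captured transcript), and tumor totals ran from 88816 to 17713491 UMIs. The 93126 cells carried 87940 distinct barcodes, 4990 of which occurred in more than 1 library. Of the 48 tumors, 3 had fewer than 500 cells (CC007 aPD1 in pool 6, B6 isotype in pool 7 and CC002 isotype in pool 12). Clusters were named from marker genes, and "-like" marks such a name. The 10 macrophage-like clusters (68059 cells) each had at least 6 of 8 macrophage markers at 100 CPM (the UMI count of a gene scaled by all UMIs of the cells summed) or more, and the 7 T/NK-like clusters (10195 cells) at least 6 of 10 T/NK markers. T/NK-like cluster 12 was also led by hemoglobin genes. Outside the T/NK-like sums were cluster 24 (1614 cells), whose leading genes included the NK cell genes *Ncr1*, *Klra8* and *Klrb1c*, and cluster 23 (212 cells), whose leading genes included *Il17a* and *Il23r*. Both had too few of the 10 markers at that level to be named, so the T/NK-like values are without them unless stated. Clusters 4 and 15, with 7 and 6 of the 8 macrophage markers at that level, had these markers below their mean over clusters (-0.13 and -0.324 on the log2 scale). Like macrophage-like clusters 2 and 5, they had none of these markers among their 10 leading genes. They stay in the macrophage-like sums and are called by number, and leaving them out, an alternative added after the data had been seen, changed no member's call by class, treatment or host.

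All 7 genes have a start site in RefSeq on GRCm38.p6, the build of the counts. *Tnf* lies at chr17:35199367-35202007 on the minus strand, *Tnfaip3* at chr10:19000910-19015410 (minus), *Nfkbia* at chr12:55489409-55492647 (minus), *Birc3* at chr9:7847468-7873205 (minus), *Traf1* at chr2:34941750-34961812 (minus), *Tnfrsf1a* at chr6:125349723-125362483 (plus) and *Tnfrsf1b* at chr4:145212368-145246870 (minus). The 250 bases before a start site were searched on both strands for the kappaB consensus, the motif NF-kappaB binds, and for TATAAA. The promoters of the ligand and of both members with a kappaB match are shown, since *Nfkbia* and *Tnfaip3* were among the genes higher in cells holding a *Tnf* transcript. Capitals mark TATAAA in *Tnf* and the kappaB matches in *Tnfaip3* and *Nfkbia*. The sequences read 5′ to 3′ on the gene's own strand and end at the base before the start site, and they span chr17:35202008-35202257, chr10:19015411-19015660 and chr12:55492648-55492897.
Tnf: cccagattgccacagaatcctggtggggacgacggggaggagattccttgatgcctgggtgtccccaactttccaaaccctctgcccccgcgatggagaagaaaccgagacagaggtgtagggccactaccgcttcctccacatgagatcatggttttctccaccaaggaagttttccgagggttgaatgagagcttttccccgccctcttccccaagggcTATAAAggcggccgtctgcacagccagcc
Tnfaip3: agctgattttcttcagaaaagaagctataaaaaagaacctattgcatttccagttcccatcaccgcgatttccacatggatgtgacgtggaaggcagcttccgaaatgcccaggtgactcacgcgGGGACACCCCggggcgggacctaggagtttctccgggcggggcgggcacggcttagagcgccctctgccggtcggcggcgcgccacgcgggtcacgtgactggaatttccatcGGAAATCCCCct
Nfkbia: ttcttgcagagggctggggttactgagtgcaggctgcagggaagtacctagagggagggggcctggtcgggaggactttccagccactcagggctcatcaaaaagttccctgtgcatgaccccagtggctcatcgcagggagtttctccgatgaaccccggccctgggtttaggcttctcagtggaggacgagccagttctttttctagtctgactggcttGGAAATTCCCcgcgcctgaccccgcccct

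The *Nfkbia* promoter had 1 kappaB match, 29 to 20 bases before the start. The *Tnfaip3* promoter had 2 such positions, 125 to 116 and 12 to 3 bases before its first start site, and the former matched on both strands. *Tnf* had TATAAA 29 to 24 bases before the start and no kappaB match in this window. The *Tnfaip3* window also held TATAAA once, left in lower case. No kappaB match was found in the windows of *Tnfrsf1a*, *Tnfrsf1b*, *Birc3* or *Traf1* either. Of 32851 promoters of the same length, 2382 (7.251%) held the kappaB consensus and 4063 (12.37%) held TATAAA, so a match by itself sets no gene apart.

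*Tnf*, the ligand, came mainly from macrophage-like cells in these tumors, which gave 84.58% of its 28784 UMIs, against 5.204% from T/NK-like cells. Macrophage-like cells were 68059 of the 93126 cells, and their *Tnf* level was 80.88 CPM, against 69.5 CPM over all cells. Per UMI sequenced the level was highest elsewhere. Granulocytic-like cluster 16 had 275.6 CPM over all its cells, and its tumors ran from 50.25 to 1019 CPM with a median of 192.4 (7 tumors with at least 20 cells of the cluster). T/NK-like cluster 13, led by *Il2*, *Ifng* and *Xcl1*, had 165.6 CPM, with 25.41 to 169.8 CPM and a median of 104.1 over 9 tumors. Both clusters were small and seen in few tumors, and their ranges overlapped with those of the macrophage-like clusters.

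Among macrophage-like cells, *Tnf* was spread unevenly. Cluster 21, led by interferon-induced genes such as *Ifit3* and *Rsad2*, had 27.32 to 284.2 CPM with a median of 97.32 (45 tumors). Cluster 2, led by *Ly6i*, *Ccl24* and *Clec4n*, ran from 37.38 to 282.0 CPM with a median of 96.52 (47 tumors) and alone gave 31.41% of all *Tnf* UMIs. Cluster 26, led by *Cxcl13* and complement genes, had a median of 74.78 CPM and gave 26.42%, whereas cluster 5 had a median of 30.62 CPM. The medians of clusters 21 and 2 differed by far less than the spread between tumors, and the ranges of clusters 2 and 5 overlapped.

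The share of cells with a *Tnf* UMI was compared after thinning each cell of at least 1000 UMIs to 1000. It was 6.949% of macrophage-like cells (95% exact binomial interval 6.753 to 7.149%, which covers counting error only), and 21.05% before thinning. By cluster it was 8.953% in cluster 2, 7.921% in cluster 26 and 3.06% in cluster 5, at median depths of 3881, 4383 and 2599.5 UMIs, and 15.23% in T/NK-like cluster 13. Fibroblast-like cluster 22, which should lack *Tnf* and had a median depth of 4199.5 UMIs, gave 2 of 560 cells or 0.3571% (interval 0.04328 to 1.284%). Migratory DC-like cluster 11, T/NK-like cluster 8, led by *Foxp3*, and T/NK-like cluster 3 lay low at 3.41%, 3.34% and 2.923%, still above that background.

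The receptors differed in where they were found. *Tnfrsf1a* had its highest levels in myeloid and fibroblast-like cells, with 85.34% of its UMIs in macrophage-like cells (88.67 CPM, against 75.51 over all cells) and 1.327% in T/NK-like cells (14.21 CPM). Its tumor medians were 260.9 CPM in granulocytic-like cluster 16, 173.0 in fibroblast-like cluster 22 and 168.4 in cluster 4, led by *Adgre4*, *Ace* and *Chil3*, while 6 of the 7 T/NK-like clusters had medians between 0 and 11.26 CPM. *Tnfrsf1b* was present in both, with its highest pooled level in T/NK-like cluster 8, where *Foxp3* marks regulatory T cells (287.6 CPM, tumors from 108.1 to 573.7 with a median of 279.9). Granulocytic-like cluster 16 had 281.0 CPM and a median of 252.1 (156.5 to 577.1), cluster 4 had 241.8 CPM and a median of 240.4 (146.1 to 389.1), and fibroblast-like cluster 22 was low with a median of 9.692. The ranges of clusters 8, 16 and 4 overlapped.

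Of the feedback genes, *Nfkbia* and *Birc3* had their highest pooled level in the same granulocytic-like cluster 16 as *Tnf*, *Traf1* had it in migratory DC-like cluster 11 and *Tnfaip3* in unnamed cluster 23. Cluster 23 had 1492 CPM of *Tnfaip3*, 1219 of *Nfkbia* and 121.0 of *Tnf*, and only 1 tumor had at least 20 of its cells. *Tnfaip3* had 593.2 CPM over T/NK-like and 72.87 CPM over macrophage-like cells, although the more numerous macrophage-like cells gave 45.2% of its UMIs and T/NK-like cells 35.69%. Its tumor median was 1013 CPM in granulocytic-like cluster 16 (28.56 to 1304, 7 tumors), 855.2 CPM in T/NK-like cluster 7, led by *Lef1* and *Tcf7* (354.4 to 2336, 40 tumors), 94.85 in cluster 2, 38.61 in cluster 26 and 24.53 in cluster 5. Every tumor in cluster 7 thus lay above every tumor in clusters 2, 5 and 26. *Nfkbia*, the IκBα gene, had its highest level in granulocytic-like cluster 16, with a median of 3183 CPM (1799 to 4581, 7 tumors), and migratory DC-like cluster 11 had 1082 (522.2 to 1485, 39 tumors). Cluster 2 had 339.2 CPM and clusters 26 and 5 had 156.2 and 140.3, with wide overlap between clusters 26 and 5.

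*Traf1* and *Birc3* were high in migratory DC-like cells. *Traf1* had a median of 553.1 CPM in cluster 11 (322.2 to 910.3), against 43.31 in cluster 2 and 9.932 in cluster 26 (2.877 to 31.87). Every tumor in cluster 11 lay above every tumor in clusters 2 and 26. T/NK-like clusters 10 and 13 came next in pooled level, with 279.6 and 207.0 CPM. *Birc3* had medians of 485.5 CPM in cluster 16 and 293.6 in cluster 11 (212.0 to 477.8), and 104.8 in cluster 2 (67.72 to 189.6). Here too cluster 11 stood above cluster 2 without overlap, while *Tnf* in cluster 11 had a median of only 29.38 CPM.

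**Figure D1:**
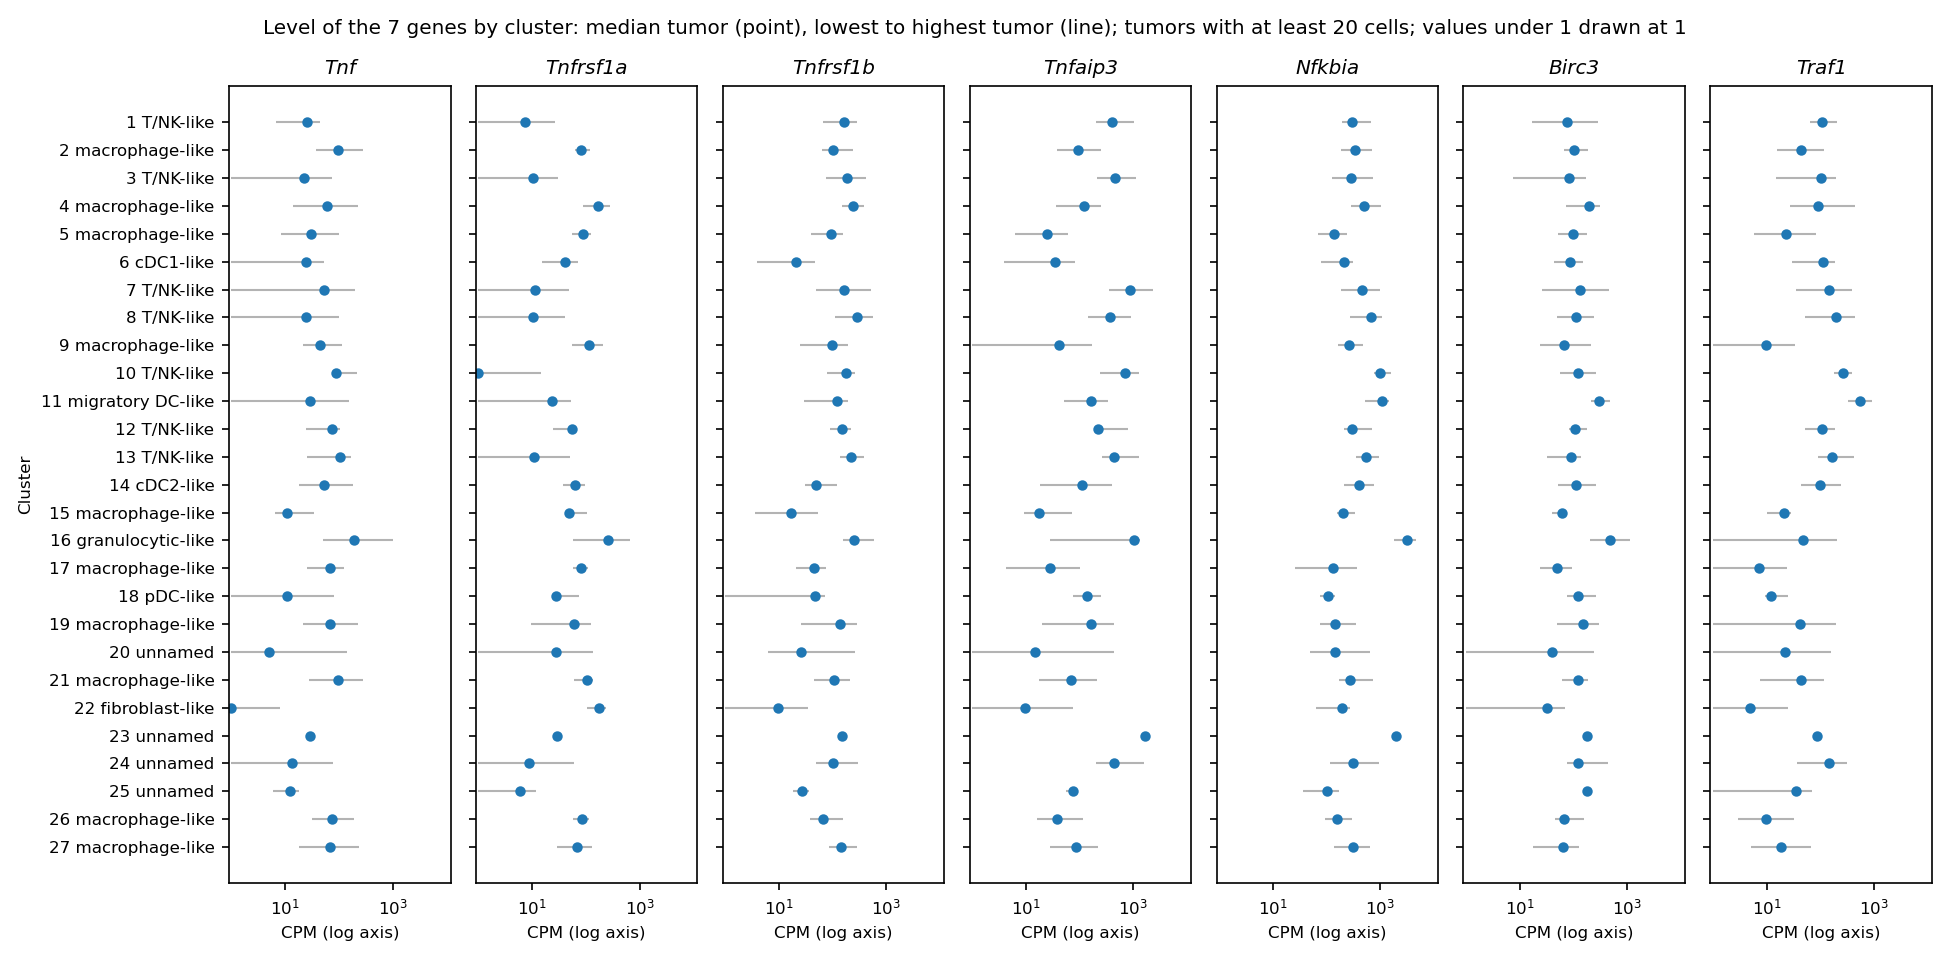
Level of each gene in each of 27 clusters, in CPM on a log axis. The point is the median tumor and the line runs from the lowest to the highest tumor with at least 20 cells of that cluster, values under 1 being drawn at 1. *Tnf* medians reach 192.4 in cluster 16 and 96.52 in cluster 2, *Tnfaip3* is high in T/NK-like clusters and *Traf1* peaks in cluster 11 at 553.1.

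In aPD1 tumors, macrophage-like cells of responder strains had somewhat higher values of all 7 genes than those of non-responder strains, and none of the 7 passed the test. These differences rested in part on host CC075, whose tumors were all in pools 9 to 11, so that host and pools cannot be told apart. Without CC075 the fitted log2 difference of *Tnfrsf1b* turned to -0.027, *Traf1* had 0.24, *Tnfaip3* 0.24, *Nfkbia* 0.13 and *Birc3* 0.19, while *Tnf* had 0.39 and *Tnfrsf1a* 0.15. Non-responder host CC079 had the lowest mean over both treatments of *Birc3* (73.38 CPM), *Tnfaip3* (38.76), *Nfkbia* (208.7), *Tnfrsf1b* (72.93) and *Traf1* (22.31), though not of *Tnf* or *Tnfrsf1a*. The differences without CC079 are not given here. *Birc3*, the cIAP2 gene, had 69.96 CPM in the lowest responder aPD1 tumor, 101.5 in the median and 170.1 in the highest. The non-responder aPD1 tumors had 64.52, 78.64 and 105.7 CPM. The groups overlapped, but 5 of 10 responder tumors lay above the highest non-responder tumor and 1 of 9 non-responder tumors lay below the lowest responder tumor. The difference was 0.44 ± 0.18 (log2, SE) with an adjusted p of 0.125 (edgeR quasi-likelihood test, Benjamini-Hochberg over 11873 genes).

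Whether *Birc3* was called depended on how pools were handled and on which clusters were summed. It was called with the pool as a block, with a pools term and in cluster 2 alone, and in no other setting, DESeq2 included. With the pool as a block, which the design allows because tumors of 1 pool share a library, *Birc3* was called at 0.46 ± 0.14 (edgeR adjusted p = 0.0319, 11.7% of all genes called), and with a term for pools 1 to 6 against 7 to 12 at 0.40 ± 0.13 (edgeR adjusted p = 0.0464, 9.73% of genes). Within cluster 2 alone it was called too, at 0.45 ± 0.13 (edgeR adjusted p = 0.0262, 7.54% of genes). Within pools 1 to 5 it was 0.30 ± 0.18 (edgeR adjusted p = 0.477) and within pools 8 to 12 it was 0.49 ± 0.19 (edgeR adjusted p = 0.206). Without host CC075, whose aPD1 tumors held the 3 highest values (139.5, 140.6 and 170.1 CPM), the difference was 0.19 ± 0.17.

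*Tnf* in macrophage-like cells ran from 57.03 to 126.0 CPM in the 10 responder aPD1 tumors (median 81.43) and from 28.57 to 108.9 in the 9 non-responder aPD1 tumors (median 60.26). All but 1 of the responder tumors lay above the non-responder median, yet only 1 lay above the highest non-responder tumor. The difference was 0.42 ± 0.22 and did not pass (edgeR adjusted p = 0.281). Differences of the other members were 0.64 for *Tnfaip3*, 0.63 for *Traf1*, 0.41 for *Nfkbia*, 0.27 for *Tnfrsf1b* and 0.16 for *Tnfrsf1a*, with edgeR adjusted p from 0.249 to 0.453. Of all genes tested in this contrast, 6.41% were called, against 0 of 7 here, and 0 of 7 were called by DESeq2, which called 8.41% of all genes. The median difference of the 7 was 0.42, against 0.000788 over all genes. The sum of 14 genes known to rise with dissociation and stress had medians of 9302 CPM in responder and 7476 CPM in non-responder aPD1 tumors (6249 to 12250 and 5581 to 11720), the granulocytic markers 56.75 and 33.22 CPM (27.76 to 108.0 and 26.32 to 54.73), and the cDC2 markers 34.48 and 64.26 CPM (24.29 to 100.6 and 29.87 to 153.7), with none of these markers at 0 throughout. Their part in these differences was not tested.

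In isotype tumors, without PD-1 blockade, the fitted differences were smaller in size and some turned round. They were 0.11 for *Tnf*, 0.05 for *Tnfaip3* and 0.02 for *Tnfrsf1a*. They were -0.29 for *Birc3*, -0.15 for *Nfkbia*, -0.13 for *Tnfrsf1b* and -0.098 for *Traf1*. The responder median lay below the non-responder median for every member, with 17.79 and 30.32 CPM for *Traf1*. *Tnf* had medians of 71.95 CPM in responder (42.87 to 178.7) and 77.44 CPM in non-responder strains (45.39 to 126.1), and *Birc3* had 70.79 (56.47 to 115.7) and 86.21 (63.17 to 158.1). Both pairs of ranges overlapped. No member was called by edgeR or DESeq2, while edgeR called 0.278% and DESeq2 0.615% of all genes.

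The effect of aPD1 itself was tested in each class with the same tumors, so these contrasts share samples with those above. *Birc3* was higher in the aPD1 than in the isotype tumor of the same pool in 8 of 10 responder pairs and in 3 of 9 non-responder pairs, and *Tnf* in 6 of 10 and 2 of 9. *Tnfaip3* was higher in 8 of 10 and 6 of 9, *Traf1* in 8 and 5, *Nfkbia* in 7 and 5, *Tnfrsf1b* in 7 and 3 and *Tnfrsf1a* in 6 and 4. The fits that follow did not use these pairs. The fitted aPD1 effect on *Birc3* was 0.50 ± 0.17 in responder strains (unadjusted p = 0.0061, edgeR adjusted p = 0.601) and -0.23 ± 0.18 in non-responder strains, and the interaction was 0.73 ± 0.25 (edgeR adjusted p = 0.870). On *Tnf* it was 0.13 ± 0.22 and -0.19 ± 0.23. In each of these 3 contrasts edgeR called 0 of 7 members and 0% of all genes. DESeq2 called 2, 0 and 1 of all genes (0.0168%, 0% and 0.00842%) and none of the 7. The 14 stress genes summed to medians of 9302 CPM with aPD1 and 7637 with isotype in responder strains (6249 to 12250 and 5258 to 10770), and to 7476 and 8178 in non-responder strains (5581 to 11720 and 6189 to 13340). Of the 14, 11 had a positive aPD1 effect in responder strains, 3 in non-responder strains and 12 a positive interaction (medians 0.20, -0.14 and 0.34), and none was called. Their part in the *Birc3* values was not tested.

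**Figure D2:**
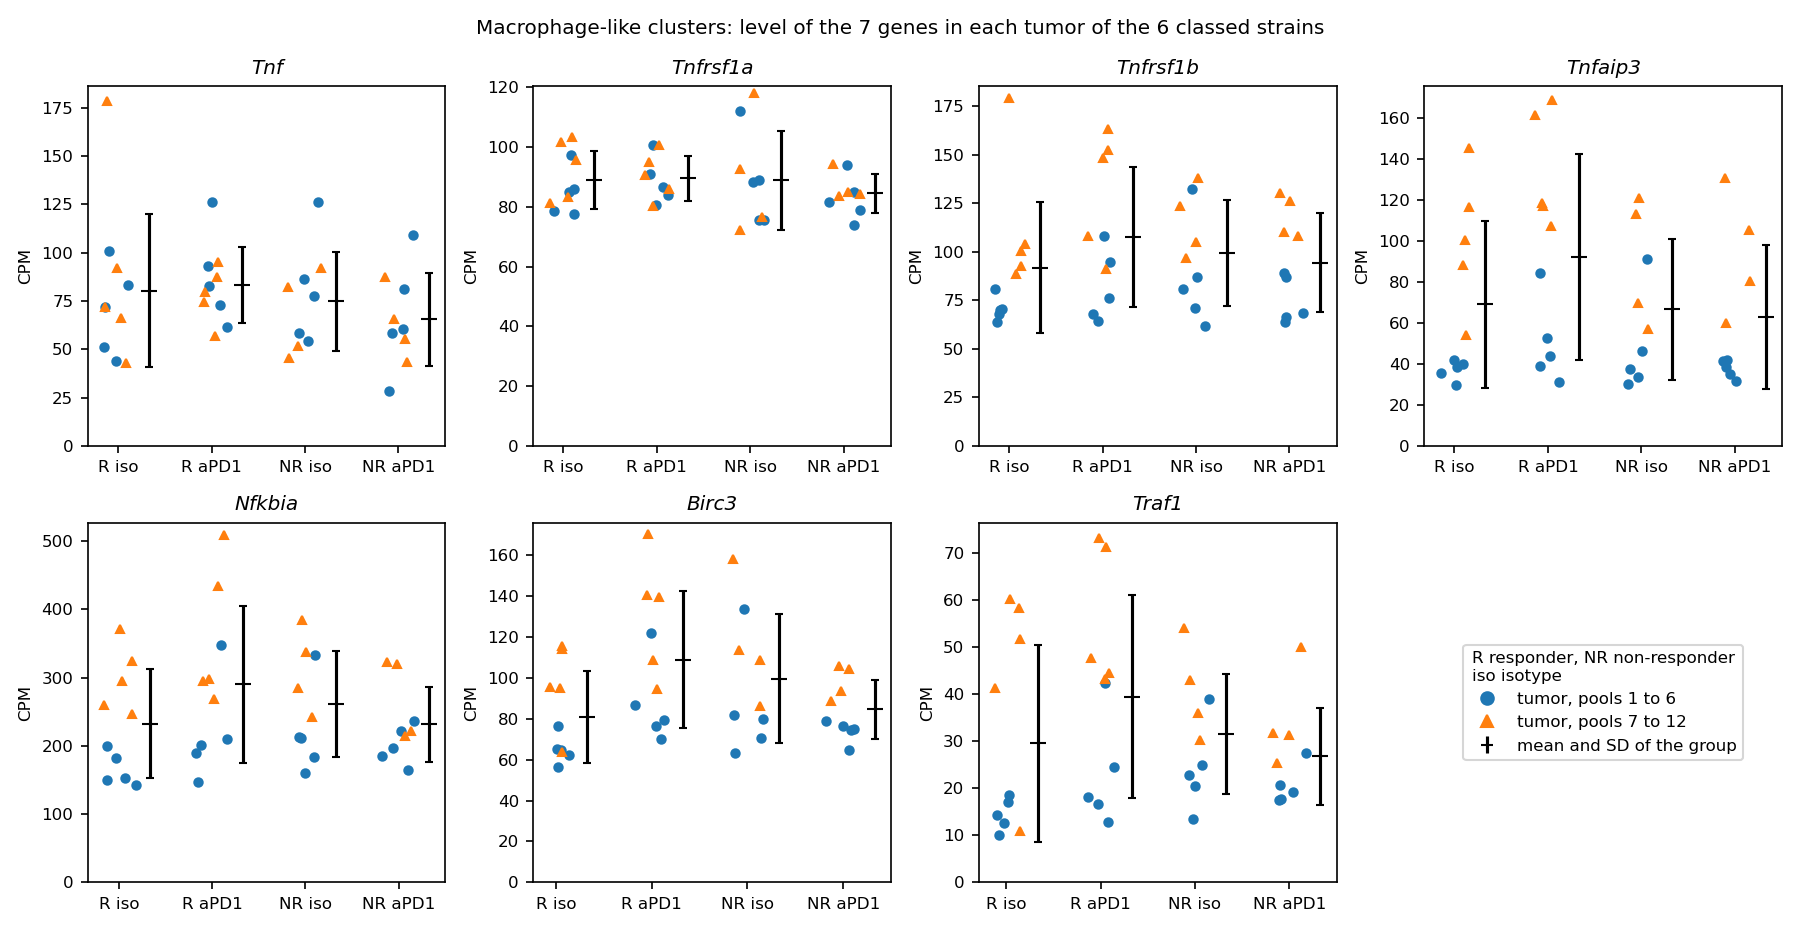
Level (CPM) of each gene in macrophage-like cells of the 38 tumors of classed strains, by response class and treatment, with the mean and SD of each group. Circles are tumors of pools 1 to 6 and triangles those of pools 7 to 12. *Birc3* in responder aPD1 tumors reaches 170.1, above the highest non-responder aPD1 tumor at 105.7, while the 4 groups overlap for every gene.

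The share of macrophage-like cells with a *Tnf* UMI after thinning was 7.31% ± 1.474 (SD, n = 10 tumors) in responder aPD1, 6.192% ± 1.985 (n = 9) in non-responder aPD1, 6.787% ± 2.723 (n = 10) in responder isotype and 6.816% ± 2.384 (n = 9) in non-responder isotype tumors. The SDs exceeded every difference between groups. None of 5 comparisons of these shares passed an exact or 100000-resample permutation test (two-sided, adjusted p from 0.778 to 0.976). For responder minus non-responder aPD1 tumors the difference was 1.118 percentage points, and 1.478 within the 8 pools that hold both classes (exact sign flips, adjusted p = 0.0938).

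Other genes of the pathway, from lists, showed scattered calls in macrophage-like cells of aPD1 tumors. Among NF-kappaB targets 3 of 25 tested were higher in responder strains, among other inhibitors of NF-kappaB 1 of 11, in the receptor complex and its kinases 1 of 21, and none of the 5 NF-kappaB subunits, 4 shedding factors and related ligands or 5 regulators of *Tnf* mRNA decay was called. Across all genes 4.33% were called higher and 2.08% lower. The called genes of smallest p were the chemokine gene *Ccl5* (2.29 ± 0.47, edgeR adjusted p = 0.00237), *Cd40*, a receptor by which T cells activate macrophages (0.87 ± 0.25), *Sod2*, mitochondrial superoxide dismutase (0.58 ± 0.17), and *Cyld*, a deubiquitinase that restrains NF-kappaB (0.29 ± 0.09). List medians ran from -0.04 for *Tnf* mRNA decay to 0.29 for the other inhibitors.

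*Ccl5* is also a T cell gene. The 10 T/NK markers summed to 2.788 to 8.525 CPM (median 4.955) in macrophage-like cells of non-responder aPD1 tumors and to 5.145 to 54.21 CPM (median 9.982) in those of responder aPD1 tumors, and none of the 10 was at 0 throughout. Their part in the result was not tested. In isotype tumors 1 listed gene was called, the lymphotoxin gene *Ltb*, which was lower in responder strains by -2.47 ± 0.50 (edgeR adjusted p = 0.00927, with 0.126% of all genes called higher and 0.152% lower). In those tumors the T/NK markers in macrophage-like cells summed to 3.352 to 15.12 CPM in responder and 5.259 to 32.02 in non-responder strains (medians 6.027 and 6.737), B cell markers to 19.91 to 60.28 and 13.01 to 422.8 (medians 44.2 and 44.42), with 1 of 6 at 0 throughout in both, and cDC2 markers had medians of 38.82 and 72.73. Their part in the result was not tested. No listed gene was called for aPD1 against isotype in responder strains or for the interaction.

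In T/NK-like cells no member was called by class or treatment. *Tnfaip3* ran from 271.5 to 1016 CPM in responder aPD1 tumors (median 434.7) and from 217.7 to 899.5 in non-responder aPD1 tumors (median 373.5). *Traf1* had 73.8 to 223.4 (median 130.2) and 122.0 to 287.2 (median 184.7), so the medians stood the other way round with wide overlap. *Traf1* differed by -0.36 ± 0.16 (unadjusted p = 0.0304, edgeR adjusted p = 0.352) and *Tnfaip3* by 0.09 ± 0.25. Of the 7 genes, *Tnfrsf1a* was too low to be tested, and none of the other 6 was called by edgeR or DESeq2 in any of the 5 contrasts, where 0.743%, 0.238%, 0%, 0% and 0% of 6727 genes were called by edgeR and 1.69%, 0.788%, 0%, 0.0149% and 0% by DESeq2.

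Pairs of tumors from 1 host and pool were also compared in T/NK-like cells. *Tnfrsf1b* was higher in the aPD1 tumor in 1 of 10 responder, 6 of 9 non-responder and 0 of 4 unclassed pairs. Its medians in responder strains were 184.9 CPM with aPD1 (157.3 to 247.7) and 212.0 with isotype (165.5 to 322.9), and the groups overlapped. With the pool as a block the difference was -0.27 ± 0.12 and did not pass (unadjusted p = 0.0325, edgeR adjusted p = 0.885). *Tnfrsf1a* was higher with aPD1 in 9 of 10 responder, 6 of 9 non-responder and 2 of 4 unclassed pairs, at medians of 14.37 CPM (11.37 to 21.37) and 8.913 (0 to 19.79) in responder strains, a level too low for the test. The macrophage markers in the same responder T/NK-like cells had medians of 630.0 with aPD1 and 561.3 with isotype (206.1 to 1821 and 146.6 to 1242), and the regulatory T markers 1160 and 1312 (600.3 to 1822 and 636.9 to 1805), and their part was not tested. The other 5 genes were higher with aPD1 in 3 to 5 of 10 responder and 2 to 4 of 9 non-responder pairs. With the block none of the 6 tested members was called in the 5 contrasts, where 2.62%, 0.609%, 0%, 0.0595% and 0% of genes were.

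Unadjusted p under 0.05 without the block occurred for *Traf1* in aPD1 tumors, *Nfkbia* in isotype tumors (-0.45 ± 0.19) and *Tnfrsf1b* in the interaction (-0.46 ± 0.22). The share of all genes at that unadjusted level is not given here. The summed macrophage markers in T/NK-like cells had a median of 1601 CPM in non-responder aPD1 tumors (340.1 to 4311) and 630.0 in responder aPD1 tumors (206.1 to 1821), with none of the 8 markers at 0. The regulatory T markers had medians of 2055 and 1160, the cytotoxic T markers 1412 and 2191, and the stress genes 5289 and 4188, with 13 of the 14 stress genes below 0 in the fitted difference and none called. In isotype tumors the stress genes had medians of 5118 and 4110, with 8 of the 14 above 0 in the fitted difference (median 0.07) and none called. In the interaction 3 of the 14 stress genes were above 0 (median -0.42, against -0.004 over all genes) and none was called. Their part in these values was not tested.

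Across the 8 hosts, whatever the class, 6 of 7 members differed in macrophage-like cells, all but *Tnf* (edgeR adjusted p = 0.370 for *Tnf*). This must be read against 51.3% of all 12510 genes called in that test. *Birc3* had means of 131.4 ± 13.55 CPM in CC007 (SD, n = 4), 126.1 ± 29.45 in CC075 (n = 6), 122.8 ± 20.64 in B6 (n = 6) and 108.5 ± 26.03 in CC036 (n = 6). It had 94.13 ± 24.92 in CC080 (n = 6), 84.21 ± 17.32 in CC002 (n = 6), 79.26 ± 24.17 in CC001 (n = 8) and 73.38 ± 7.862 in CC079 (n = 6). The ranges of the first 3 hosts overlapped, as did those of the last 3, but the lowest CC007 tumor (118.4) lay above the highest CC079 tumor (82.0). *Birc3* had the smallest p of the members (edgeR adjusted p = 0.000337).

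*Traf1* had means of 59.64 ± 11.4 CPM in CC075, 44.59 ± 17.66 in B6, 37.16 ± 5.17 in CC007, 36.09 ± 9.048 in CC036, 29.04 ± 15.48 in CC080, 24.4 ± 14.36 in CC002, 23.09 ± 14.41 in CC001 and 22.31 ± 3.511 in CC079. CC075 (43.23 to 73.17) lay above CC007 (31.59 to 42.96) and CC007 above CC079 (17.65 to 27.54), and the other hosts overlapped with their neighbours in this order. The CC007 value of 42.96 is 2 UMIs in the 53-cell tumor of pool 6, where 1 UMI is 21.48 CPM, so its gap to CC075 is smaller than 1 UMI, and without that tumor CC007 ran from 31.59 to 39.82. *Tnfaip3* ran from a mean of 38.76 ± 5.764 in CC079 to 113.3 ± 44.12 in CC075. *Nfkbia* ran from 208.7 ± 20.6 in CC079 to 353.8 ± 140.9 in CC007, *Tnfrsf1b* from 72.93 ± 8.996 in CC079 to 128.6 ± 30.66 in CC007, and *Tnfrsf1a* only from 83.9 ± 14.22 in CC080 to 106.7 ± 5.744 in B6. CC079 had the lowest mean of 5 of the 7 genes. Without the 3 tumors under 500 cells the highest means were those of CC075 for *Nfkbia* (340.1 ± 106.3, CC007 having 285.6 ± 43.1), B6 for *Tnfrsf1b* (129.7 ± 33.82, CC007 having 114.2 ± 12.84) and B6 for *Tnfaip3* (117.6 ± 44.42), and CC002 had the lowest of *Nfkbia* (185.4 ± 65.7) and *Traf1* (21.05 ± 13.17). Without those tumors CC075 also had the highest mean of *Birc3* (126.1 ± 29.45, CC007 having 125.0 ± 5.899). *Tnf* had host means from 61.91 ± 17.2 (CC080) to 98.73 ± 53.15 (B6), with 42.91 to 188.3 CPM within B6 alone.

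These host differences depended on the handling of pools. With the pool as a block 0 of 7 members were called (12.6% of all genes), and with a term for pools 1 to 6 against 7 to 12 only *Birc3* was (28.9% of all genes, edgeR adjusted p = 0.0241). CC079 tumors were all in pools 1 to 5, and CC036 and CC075 tumors all in pools 8 to 11. In T/NK-like cells 1 of 7 members differed among hosts, *Tnfaip3*, with 23.4% of 8126 genes called. Its means ran from 330.8 ± 89.53 CPM in CC079 (n = 6) to 847.6 ± 223.5 in CC036 (n = 6, edgeR adjusted p = 0.000565). With the pool as a block *Tnfaip3* was no longer called (edgeR adjusted p = 0.13) and *Traf1* was (edgeR adjusted p = 0.0296), with 7.81% of genes called. With clusters 23 and 24 added to the T/NK-like cells, an alternative added after the values had been seen, *Tnfaip3* and *Birc3* were called among hosts (edgeR adjusted p = 0.0011 and 0.0339, 24.9% of genes), and none of the 7 was called in the 5 contrasts of class and treatment, where 0.319%, 0.277%, 0%, 0% and 0% of genes were.

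The pools were therefore compared directly, pools 7 to 12 against 1 to 6, with host and treatment as terms, a comparison added after the values had been seen. Each tumor counted as a replicate although tumors of 1 pool share a library, so the p-values do not measure the spread between pools. CC079 tumors were all in pools 1 to 5, and CC036 and CC075 tumors all in pools 8 to 11. With host as a term, these 3 hosts do not inform the contrast. *Tnfaip3* in macrophage-like cells had 29.94 to 91.18 CPM in the 24 tumors of pools 1 to 6 (median 40.65) and 53.93 to 168.5 in the 24 of pools 7 to 12 (median 110.0). Within 1 host the groups could part completely. CC002 had 38.66 to 43.7 CPM in 4 tumors of the former and 118.3 and 145.4 in 2 of the latter, and CC001 had 29.94 to 84.26 in 6 and 116.4 and 117.1 in 2. The later tumors of both hosts were all in pool 12, a single library, and the value of 145.4 came from a tumor of 248 cells. CC007, in pools 6 and 7, ran only from 42.96 to 77.88 CPM over 4 tumors, the lowest having 53 cells. The values of B6 and CC080 by pool are not given here.

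In this test 4 of 7 members were higher in pools 7 to 12, where 9.83% of 12510 genes were called, 5.39% higher and 4.44% lower. They were *Tnfaip3* (1.13 ± 0.18, edgeR adjusted p = 9.7e-05), *Traf1* (0.89 ± 0.20, medians 19.81 and 43.91 CPM), *Nfkbia* (0.63 ± 0.14, medians 200.8 and 321.6) and *Tnfrsf1b* (0.37 ± 0.12, medians 78.44 and 109.2). *Tnf* with 0.19 (medians 72.4 and 80.97, edgeR adjusted p = 0.696), *Birc3* with 0.19 and *Tnfrsf1a* with 0.06 did not pass. In T/NK-like cells *Tnfaip3* was the only member called (0.51 ± 0.17, edgeR adjusted p = 0.0485), with 9.77% of genes called in either direction.

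Medians of marker sums of other cell types also differed between pools 1 to 6 and pools 7 to 12. These medians were taken without a term for host. Tumors of CC079, CC036 and CC075 each lay on 1 side only, so host and pools cannot be told apart in them. In macrophage-like cells the granulocytic markers had a median of 34.72 CPM in pools 1 to 6 (21.48 to 73.35) and 54.45 in pools 7 to 12 (30.76 to 252.2), and the cDC2 markers 43.11 (21.48 to 184.1) and 70.76 (12.11 to 179.0), with none of the 6 and 5 markers at 0 throughout. The macrophage markers themselves had medians of 16170 (9516 to 30070) and 12720 (8322 to 30190). In T/NK-like cells the regulatory T markers had medians of 1704 CPM (850.0 to 3673, 23 tumors) and 931.1 (399.7 to 2055, 24 tumors), and the macrophage markers 1001 (296.8 to 4311) and 586.6 (146.6 to 4035), with none of the 4 and 8 at 0 throughout. *Tnfaip3* had 386.7 CPM in the *Foxp3*-marked cluster 8, against 908.9 in cluster 7. The part of these markers in the pool differences was not tested.

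The pathway lists moved in part with the pools in macrophage-like cells. Of the targets 6 of 25 were higher, of the other inhibitors 4 of 11, of the receptor complex 2 of 21, of the subunits 1 of 5 and of the *Tnf* mRNA decay genes 1 of 5, and none was lower. Those of smallest p were *Zfp36*, which encodes tristetraprolin, a protein that destabilizes *Tnf* mRNA (0.70 ± 0.12), the activation marker *Cd83* (0.78 ± 0.14), the neutrophil-attracting chemokine gene *Cxcl2* (1.04 ± 0.19) and *Nfkbiz*, which encodes a nuclear IκB protein (0.45 ± 0.08). Of the 14 stress genes, 10 were higher and none lower, with a median difference of 0.53 against 0.00285 over all genes. Their sum had a median of 7118 CPM in pools 1 to 6 (5258 to 11640) and 10060 in pools 7 to 12 (6626 to 13340).

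The mean of those 14 stress genes was set against each member over the 48 tumors, on the log2(CPM + 1) scale. It rose with *Tnfaip3* (Pearson r = 0.825, Spearman rho = 0.833), *Tnfrsf1b* (0.819 and 0.824), *Nfkbia* (0.816 and 0.808), *Birc3* (0.720 and 0.70) and *Traf1* (0.693 and 0.689). Each of these had a permutation p of 1e-05, the smallest 100000 resamples can give, and 1.4e-05 after adjustment over the 7 relations. *Tnf* had r = -0.015 and rho = -0.066 (permutation p = 0.920 and 0.651) and *Tnfrsf1a* r = 0.111 and rho = 0.232 (permutation p = 0.460 and 0.115). Over the 11189 genes with at least 10 counts in 24 tumors or more, the stress genes left out, the median r with the same mean was -0.126, and 264 genes (2.359%) had r of 0.693 or more. *Tnfaip3* ranked 37th by r, *Tnfrsf1b* 45th, *Nfkbia* 48th, *Birc3* 199th and *Traf1* 264th, while *Tnfrsf1a* ranked 3415th and *Tnf* 4451st. These ranks are a description.

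Within pools 1 to 6, r was 0.614 for *Tnfaip3*, 0.857 for *Tnfrsf1b*, 0.817 for *Nfkbia*, 0.759 for *Birc3* and 0.743 for *Traf1*, all with an adjusted permutation p of 0.00297 or less. Within pools 7 to 12 it was 0.666, 0.515, 0.478, 0.357 and 0.087 in the same order, and the last 2 did not pass (adjusted permutation p = 0.121 and 0.694, ranks 1496 and 4407 of 11189 genes), nor did rho for *Nfkbia* (0.425, adjusted permutation p = 0.0911). *Tnf* had r = -0.086 in pools 1 to 6 and, in pools 7 to 12, r = -0.382 and rho = -0.404 (permutation p = 0.0663 and 0.0521, adjusted 0.116 and 0.0911). Without the 2 tumors farthest from the median of the stress genes r was 0.803, 0.805, 0.794, 0.691 and 0.646. Every tumor shares its library and its host with other tumors, so the tumors are not independent of each other. The part of the stress genes in the pool and host differences was not tested.

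**Figure D3:**
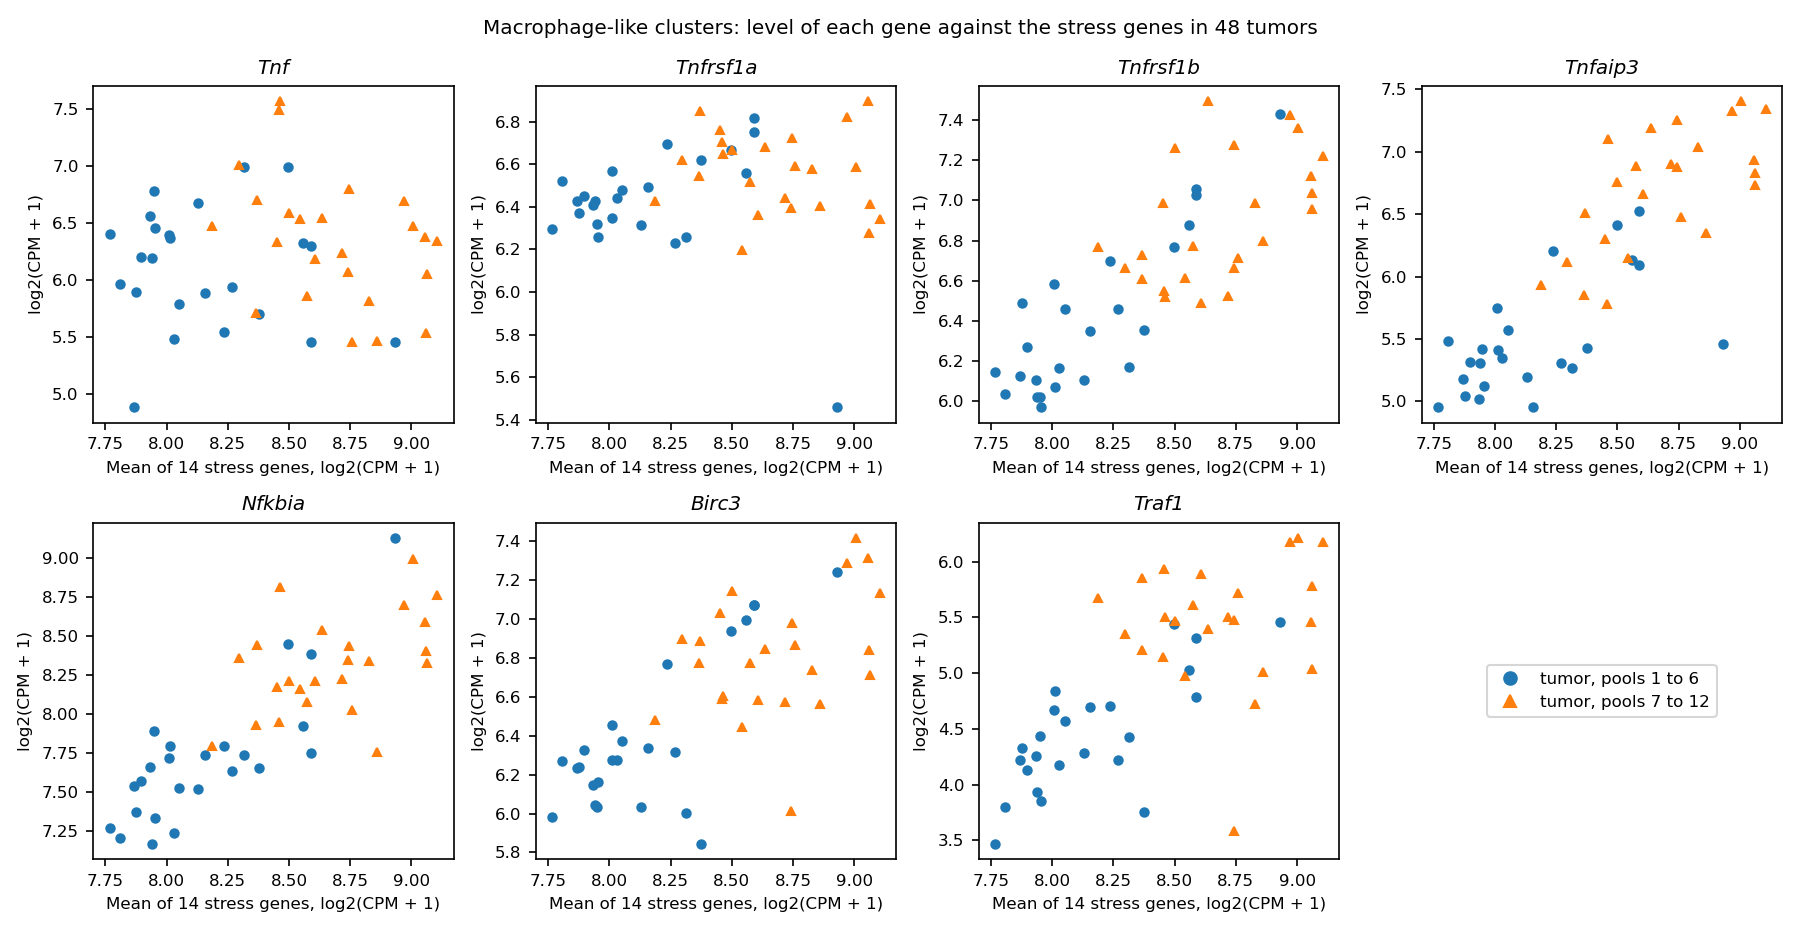
Level of each gene in macrophage-like cells against the mean of 14 stress genes in 48 tumors, both as log2(CPM + 1), circles for pools 1 to 6 and triangles for pools 7 to 12. *Tnfaip3*, *Tnfrsf1b*, *Nfkbia*, *Birc3* and *Traf1* rise with the stress genes (r from 0.693 to 0.825), whereas *Tnf* has r = -0.015 and *Tnfrsf1a* 0.111.

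From tumor to tumor, macrophage-like *Tnf* and the feedback genes were related weakly at most. Over 48 tumors r with *Tnf* was 0.277 for *Nfkbia* (permutation p = 0.0547, adjusted 0.161), 0.264 for *Traf1*, 0.255 for *Tnfrsf1a*, 0.184 for *Tnfaip3*, 0.054 for *Birc3* and 0.0038 for *Tnfrsf1b*, and rho was 0.293, 0.247, 0.162, 0.144, 0.058 and -0.017. Without the 2 tumors farthest from the median of *Tnf*, r with *Nfkbia* was 0.172 and with *Traf1* 0.205. None of the 6 relations passed after adjustment over all 48 (permutation tests, adjusted p from 0.161 to 0.979 for r and from 0.264 to 0.908 for rho). Within pools 1 to 6, r was between -0.259 and 0.052, and within pools 7 to 12 between -0.028 and 0.436, where rho with *Tnfrsf1a* was 0.538 (adjusted permutation p = 0.0406). Within cluster 2 alone *Nfkbia* (r = 0.439, adjusted permutation p = 0.0122) and *Traf1* (r = 0.383, adjusted permutation p = 0.0254) passed, with rho of 0.440 and 0.346, the latter of which did not pass (adjusted permutation p = 0.0511).

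The genes whose level over these 48 tumors was most like that of *Tnf*, of 11202 with at least 10 counts in 24 tumors or more, were *Acsl1* (rho = 0.796), an enzyme that activates fatty acids, *Ccl3* (0.760), a chemokine gene, *Cited2* (0.739), *Cd180* (0.716), a Toll-like receptor homolog, and *Cyfip2* (0.698). The median over all genes was -0.008. By the same measure *Nfkbia* ranked 886th, *Traf1* 1282nd, *Tnfrsf1a* 2263rd, *Tnfaip3* 2536th, *Birc3* 4128th and *Tnfrsf1b* 5792nd. These values are a description, since the tumors share libraries and hosts.

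Cells of the same tumor were then compared. Cluster 2 cells were divided by whether they held a *Tnf* UMI after thinning to 1000 UMIs. The 1652 cells with one were set against 16783 without, in 46 tumors with at least 10 cells on each side. Thinning set this division only, and the counts summed per tumor were those before thinning. Most of the cells with a *Tnf* UMI, 1367 of 1653 such cells in all, held exactly 1 after thinning, so cells without one can also express *Tnf*. Before thinning 25.89% of these cluster 2 cells held a *Tnf* UMI, against 8.953% after, so some cells counted as without one held one in the summed counts. Median depths before thinning were 3752 and 3986 UMIs. *Nfkbia* had 108.7 to 1321 CPM with a median of 522.8 in cells with a *Tnf* UMI and 184.8 to 665.8 with a median of 329.3 in cells without, and was higher in the former in 42 of 46 tumors. The difference with the tumor as a block was 0.75 ± 0.07 (edgeR adjusted p = 6.8e-11).

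Of the 6 other members, 4 were higher in cells with a *Tnf* UMI, where 10.9% of 5096 genes were called, 7.28% higher and 3.59% lower. *Traf1* had medians of 71.17 and 42.14 CPM and was higher in 35 of 46 tumors (0.71 ± 0.10, edgeR adjusted p = 8.8e-08). *Tnfaip3* had 131.2 and 92.0 CPM and was higher in 34 of 46 (0.54 ± 0.09, edgeR adjusted p = 8.5e-06). *Birc3* had 124.7 and 103.8 CPM and was higher in 31 of 46 (0.31 ± 0.07, edgeR adjusted p = 0.000441). All 4 are the feedback genes, and the tumors of both sides overlapped for each of them.

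The receptors did not pass in edgeR. *Tnfrsf1b* had medians of 120.2 and 100 CPM (higher in 32 of 46 tumors, 0.21 ± 0.07, edgeR adjusted p = 0.0616). DESeq2, which called 9.85% of all genes, called it (0.23 ± 0.08, DESeq2 adjusted p = 0.0496). *Tnfrsf1a* had 85.99 and 82.9 CPM (24 of 46, 0.01 ± 0.07). *Nfkbia* was called in each of clusters 2, 5 and 26, with 3 members called in cluster 26 (*Nfkbia*, *Tnfaip3* and *Birc3*), 1 in cluster 5 and 5 over all macrophage-like clusters, *Tnfrsf1b* being the fifth (0.14 ± 0.04, edgeR adjusted p = 0.0172), where 9.57%, 0.504% and 17.5% of genes were called. These fits differed in size, with 1274 cells with a *Tnf* UMI in 38 tumors for cluster 26, 131 in 11 tumors for cluster 5 and 4423 in 46 tumors for all clusters. Within pools 1 to 6 there were 3, *Tnfaip3* being lost, where 3.76% of genes were called, and within pools 7 to 12 all 4, where 4.95% were.

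**Figure D4:**
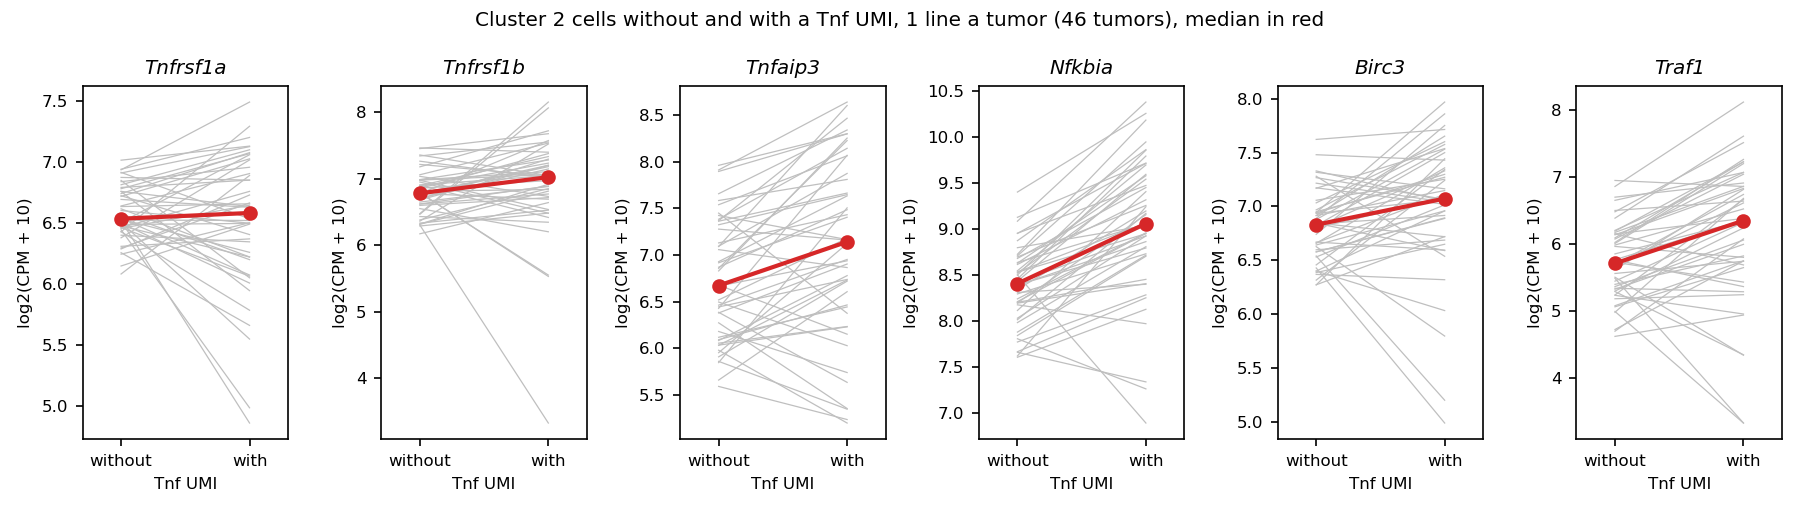
Level of 6 genes, as log2(CPM + 10), in cluster 2 cells without and with a *Tnf* UMI after thinning, 1 grey line for each of 46 tumors and the median in red. Levels are from counts before thinning. Lines rise for *Nfkbia* in 42 of 46 tumors, *Traf1* in 35, *Tnfaip3* in 34 and *Birc3* in 31, and for *Tnfrsf1a* in 24.

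The genes of largest difference among those called were *Acod1* (1.24 ± 0.12), which makes itaconate in activated macrophages, *Cxcl10* (1.03 ± 0.16), an interferon-induced chemokine gene, the cytokine gene *Il1a* (0.96 ± 0.14), *Oasl1* (0.88 ± 0.19), an interferon-induced gene, and *Gpr84* (0.83 ± 0.12), a fatty acid receptor. Higher in cells with a *Tnf* UMI were 13 of 20 tested targets, 7 of 11 other inhibitors, 4 of 5 NF-kappaB subunits, 2 of 3 shedding factors and ligands, 2 of 13 receptor complex genes and 1 of 5 *Tnf* mRNA decay genes, and none was lower. List medians ran from 0.03 for the receptor complex to 0.33 for the targets, against 0.00156 over all genes.

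Those of smallest p were *Gadd45b*, a stress-response gene that NF-kappaB induces (0.59 ± 0.06), *Nfkbiz* (0.65 ± 0.06), *Cflar*, which encodes the caspase-8 inhibitor cFLIP (0.52 ± 0.07), and *Icam1*, an adhesion molecule (0.74 ± 0.09). Of the 14 stress genes 8 were higher and none lower, with a median of 0.18. *Jun* had a difference of 0.29 ± 0.05 and *Egr1* 0.33 ± 0.06, whereas *Fos* had 0.05 ± 0.04 and did not pass (edgeR adjusted p = 0.561). Their part in the difference was not tested. Of genes of macrophages, *Cd68* moved by 0.11 ± 0.04, *Fcgr1* by 0.11 ± 0.05, *Adgre1* by 0.08 ± 0.10, *Apoe* by 0.06 ± 0.07 and *Csf1r* by 0.03 ± 0.04. *C1qb* moved by -0.05 ± 0.07, *C1qa* by -0.08 ± 0.08 and *Lyz2* by -0.10 ± 0.04, and none of these genes passed. Without cells that held a UMI of a T/NK marker (1604 cells with a *Tnf* UMI and 16257 without, 45 tumors) the same 4 members were called. The share of all genes called in that fit is not given here.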

How the data were processed

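The authors deposited raw UMI counts per gene and cell in 1 matrix for 12 libraries, made with Cell Ranger and Seurat 5.0.1 on GRCm38 (mm10), with a table giving each cell its library, host, treatment, animal and cluster. They had removed cells over limits on mitochondrial and ribosomal counts. No further cell was removed here and no doublet caller was run. Deposited cluster numbers were named from marker genes. Counts were summed per tumor over macrophage-like or T/NK-like clusters and tested with edgeR 4.0.16 in R 4.3.3 (TMM, filterByExpr, robust quasi-likelihood test, class by treatment or host), with Benjamini-Hochberg adjustment over all genes tested and a threshold of 0.05. DESeq2 1.42.0, other scalings and filters, pool terms and single clusters were alternatives. CPM values are counts scaled by all UMIs of the summed cells. Thinning, correlations and permutation tests used Python 3.11.15, numpy 2.4.6 and scipy 1.17.1. The fits were tested on simulated data.

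The members and the gene lists were chosen with earlier results of these data known. Named were all 7 members, up to 4 listed genes a comparison with the smallest p past the threshold, the 5 genes closest to *Tnf* by rho and the 5 of largest difference among those called by *Tnf* UMI. Response class came from the study's own classification of strains. Tumors of 1 pool share a library, which is where the pairing comes from. Deviations of the isotype and aPD1 tumor of a host in a pool from their group means correlated with a median r of 0.40 over 11203 genes (24 pairs, -0.11 to 0.74, 21 over 0.1). An animal identifier was given to 2 tumors (CC080 isotype in pool 3 and CC080 aPD1 in pool 4). P-values measure the spread between tumors, and for class they do not measure the spread between the 3 strains of each class. The total UMI count of a tumor limits its precision.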

Additional observations from a re-analysis of the deposited data

Results flagged for a closer look

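Of 90 groups of 4 to 10 tumors tested, 12 held a tumor far from the others, and chance flags about 1 in 20 groups. In macrophage-like cells, *Tnf* was 178.7 CPM in the CC075 isotype tumor of pool 9 (nearest responder isotype tumor 101.1), where the thinned share of cells with a *Tnf* UMI was 13.41% (nearest 7.623%). *Tnfaip3* was 151.8 CPM in the B6 isotype tumor of pool 8 (nearest 90.33), and *Traf1* was 50.03 CPM in the CC036 aPD1 tumor of pool 10 (nearest 31.73). *Tnfrsf1a* was 42.96 CPM in the CC007 aPD1 tumor of pool 6 (nearest 99.31), which had 53 cells, and *Tnfrsf1b* was 179.3 CPM in the CC002 isotype tumor of pool 12 (nearest 103.9), which had 248 cells.

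In T/NK-like cells, *Tnf* was 324.4 CPM in the CC079 aPD1 tumor of pool 1 (nearest 122.2) and *Birc3* was 273.7 CPM in the CC036 isotype tumor of pool 9 (nearest 154.2). *Tnfaip3* was 1016 CPM in the CC075 aPD1 tumor of pool 9 (nearest 604.2) and 943.6 CPM in the CC075 isotype tumor of the same pool (nearest 581.4). *Nfkbia* was 799.2 CPM in the B6 isotype tumor of pool 8 (nearest 432.1). *Tnfrsf1a* was 45.25 CPM in the B6 isotype tumor of pool 7 (nearest 18.91), which had 345 cells.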

How the results depend on the processing

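With the pool as a replicate block, members called in macrophage-like cells went from 0 to 1 for class in aPD1 tumors (*Birc3*, 0.46) and from 6 to 0 for hosts. With a term for pools 1 to 6 against 7 to 12 these counts were 1 and 1, in cluster 2 alone the class count was 1, and in cluster 5 alone the host count was 2 (23.6% of genes called). For hosts in T/NK-like cells, 1 member (23.4% of all genes called) became 2 with DESeq2 (28.2%), 3 with library totals only (25.6%), 4 without a low-count filter (13.2%), 0 with the pools term (10.1%), 0 in clusters 3 and 13 alone (9.25%) and, added after seeing the data, 2 with clusters 23 and 24 (24.9%). The *Tnf* UMI comparison gave 1 member in cluster 5 (11 tumors and 131 cells with a *Tnf* UMI) in place of 4 (46 tumors and 1652 cells). *Tnfrsf1b* changed sign for class in aPD1 tumors without CC075 (-0.027) and by *Tnf* UMI in cluster 5 (-0.17). The stress gene r with *Tnfrsf1a* was -0.118 in pools 1 to 6 and -0.145 in pools 7 to 12. The isotype class difference in *Tnf* shares, -0.029 percentage points, became 0.195 and 1.64 with cells thinned to 500 and 2000 UMIs, 0.242 in cluster 2, 0.440 in pools 8 to 12, 0.375 within pools as a block, and 0.0829, 0.308, 0.423 and 0.0777 without CC001, CC002, CC036 and CC079. The aPD1 effect on shares in responder strains became -0.153 at 2000 UMIs and -0.774 in pools 8 to 12. Pearson r between *Tnf* and *Tnfrsf1b* became -0.135 for deviations from strain and treatment means, -0.259 in pools 1 to 6, -0.0284 in pools 7 to 12 and -0.0517 without the 2 farthest tumors, and r with *Birc3* became -0.194 for deviations and -0.214 in pools 1 to 6. In cluster 2 alone r with *Nfkbia* (0.439) and *Traf1* (0.383) passed. The cause of these changes was not tested. The macrophage host count was 5 with RLE size factors (52.6% of genes called), 4 without a low-count filter (24.1%), 4 in cluster 2 (40%) and 5 in cluster 26 (32.5%), all within 1.5 times the reported 6. With these, 313 recomputed counts and values stayed within 1.5 times the reported count or kept their direction and side of the threshold. Of single genes, 377 recomputed values did so, 29 lost a call, 13 gained one and 4 changed sign. Tumors of few cells limit the precision of single values.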
